A study of Mus musculus with 14 samples.

Results

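Cxcl1, Cxcl2, Cxcl3 and Cxcl5 encode the CXC chemokines that draw neutrophils in the mouse, and Cxcr2 encodes the receptor through which neutrophils sense them. These 5 genes, 4 ligands and 1 receptor, were taken by their symbols from liver expression tables that list 17656 genes, and all 5 were found. Expression was measured in 14 liver libraries, labelled as replicates of 4 groups of 8-week-old C57BL/6 mice. The study describes its RNA samples as biological replicates, 3 to 4 per group. The labels themselves do not settle that each library came from a separate mouse, and WT saline replicates 2 and 3 were unusually alike. The p-values therefore measure the spread between libraries, which may in part be technical. The groups were 3 wild type (WT) mice given saline, 3 Ythdf1 knockout mice (Ythdf1-/-, called KO here) given saline, 4 WT mice given concanavalin A (ConA) at 8 mg/kg and 4 KO mice given the same dose, and every liver was taken 8 h after the tail vein injection. Ythdf1 encodes a reader protein of m6A-marked mRNA and was knocked out in the whole body, so no difference between KO and WT can be placed in a cell type. KO stands for the libraries labelled so, since the level of Ythdf1 itself was not lower in them. In saline livers it was called higher in KO (0.53 on the log2(TPM + 1) scale, SE 0.09, limma adjusted p = 0.0181), a 1.47-fold ratio of mean TPM with no overlap. After ConA the groups overlapped, with a difference of 0.02 (adjusted p = 0.964). The study's drawing of the targeting removes an internal exon and keeps the others, so a whole-gene TPM does not check the genotype labels in either direction. Values are TPM, transcripts per 1000000 after correction for length, so levels can be compared between genes, but the number of reads behind a value is unknown.

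ConA is a plant lectin that activates T cells and causes an acute, immune-mediated hepatitis in mice. Inflammatory cytokines such as TNF, IL-1 and IL-17 switch on the ligand genes through NF-kB in hepatocytes, endothelial cells and macrophages, and the ligands guide neutrophils out of the blood by binding CXCR2. Ligand mRNAs are short-lived, because proteins such as tristetraprolin (Zfp36) and regnase-1 (Zc3h12a) bind them and speed their decay. The comparisons ask how far ConA raised each member in each genotype and whether Ythdf1-/- livers differed from WT livers.

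The 4 ligand genes lie in 1 cluster on chromosome 5 that spans 146.6 kb of GRCm38.p6 in RefSeq, in the order Cxcl5, Ppbp, Pf4, Cxcl3, Cxcl15, Cxcl1 and Cxcl2. Cxcl1 (chr5:90891245-90893121) and Cxcl2 (chr5:90903899-90905938) were 10777 bases apart, whereas Cxcl3 (chr5:90786101-90788093) and Cxcl5 (chr5:90759298-90761625) lay at the other end. Cxcr2 (chr1:74153994-74161246) is on another chromosome, close to Cxcr1. Promoters were found in the RefSeq table for 4 of the 5 members, Cxcl5 not among them. In the 250 bases before the start, Cxcl1, Cxcl2 and Cxcl3 shared 2 stretches of 8 or more bases. The last 120 bases before each start are shown because these 3 genes rose with ConA to very different levels, and the shared stretches are in capitals. All are on the + strand, at chr5:90891125-90891244 (Cxcl1), chr5:90903779-90903898 (Cxcl2) and chr5:90785981-90786100 (Cxcl3).
Cxcl1: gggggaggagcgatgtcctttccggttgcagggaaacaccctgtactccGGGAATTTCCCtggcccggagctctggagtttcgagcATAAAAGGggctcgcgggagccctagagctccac
Cxcl2: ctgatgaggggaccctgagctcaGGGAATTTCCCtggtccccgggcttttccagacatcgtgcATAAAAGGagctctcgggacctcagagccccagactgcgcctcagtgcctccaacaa
Cxcl3: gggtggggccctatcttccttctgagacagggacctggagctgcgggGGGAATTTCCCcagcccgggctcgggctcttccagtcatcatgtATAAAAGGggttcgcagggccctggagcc
The first stretch, GGGAATTTCCC, has the form of a textbook NF-kB site and began at -71 in Cxcl1, -97 in Cxcl2 and -73 in Cxcl3. Counting both strands, it occurred in 14 of 32851 promoters of the same length (0.0426%). The second, ATAAAAGG, resembles a TATA box, began at -34, -57 and -29, and occurred in 507 promoters (1.54%). Neither stretch was found in the Cxcr2 window. Of the other 11 genes with the first stretch, 6 were in the tables and 2 could be tested for ConA, and in both genotypes 0 of these 2 rose and 1 fell (limma, adjusted p under 0.05). A match of letters is a description of the sequence and does not show that a factor was bound there.

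Cxcl1, also known as KC, was the most abundant member in every liver. In WT saline livers it stood at 16.1, 6.88 and 7.72 TPM, and in WT ConA livers at 453, 361, 356 and 447 TPM. In KO livers it stood at 3.03, 8.60 and 3.15 TPM with saline and at 358, 465, 378 and 401 TPM with ConA. The lowest ConA liver was far above the highest saline liver in both genotypes. The group means were 10.2 ± 5.10 TPM (SD, n = 3) and 404 ± 52.9 TPM (SD, n = 4) in WT, a 39.5-fold ratio, and 4.93 ± 3.18 TPM (SD, n = 3) and 401 ± 46.3 TPM (SD, n = 4) in KO, an 81.3-fold ratio. By its mean TPM, Cxcl1 moved from place 5073 among the 17656 genes in WT saline to place 306 in WT ConA, and from 6810 to 313 in KO.

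Cxcl2, also known as MIP-2, was close to 0 with saline and varied widely between the WT livers after ConA. It was at 0.08, 0.08 and 0.31 TPM in WT saline and at 0.08, 0.15 and 0 TPM in KO saline. After ConA it was at 36.6, 98.8, 66.5 and 208 TPM in WT and at 52.1, 98.2, 82.6 and 44.0 TPM in KO. The ConA means were 103 ± 75.0 TPM in WT and 69.2 ± 25.5 TPM in KO (SD, n = 4 each). The lowest and the highest of all 8 ConA livers were both WT, replicates 1 and 4, so the KO values fell inside the WT range. Saline values this low make a ratio to them unstable, and only the difference on a log scale is given for Cxcl2.

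Cxcl3, the close relative of Cxcl2, was listed at 0 in all 6 saline livers. In WT ConA livers it was at 0.48, 0.33, 0.27 and 0.33 TPM, and in KO ConA livers at 1.45, 1.21, 2.03 and 1.81 TPM. Every KO ConA liver was above every WT ConA liver, with means of 1.63 ± 0.366 TPM and 0.353 ± 0.0896 TPM (SD, n = 4 each), a 4.61-fold ratio. The KO maximum of Cxcl3 was still below the WT minimum of Cxcl2.

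Cxcl5, also known as LIX, showed the same order of groups at a similar level. It was listed at 0 in 5 of the 6 saline livers and at 0.05 TPM in KO saline replicate 3. It was at 0.53, 0.29, 0.13 and 0.29 TPM in WT ConA and at 1.14, 1.20, 3.86 and 1.40 TPM in KO ConA. The groups did not overlap, with means of 0.310 ± 0.165 TPM in WT and 1.90 ± 1.31 TPM in KO (SD, n = 4 each), a 6.13-fold ratio. KO ConA replicate 3 was far above the other 3 KO livers, which lay close together.

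Cxcr2, the receptor, was detected in every liver and rose by a moderate factor. It was at 1.34, 1.03 and 0.82 TPM in WT saline, and at 5.36, 3.30, 3.34 and 4.02 TPM in WT ConA. In KO livers it was at 0.72, 1.08 and 1.01 TPM with saline and at 5.68, 5.64, 2.84 and 2.79 TPM with ConA. The ConA and saline livers did not overlap in either genotype, and the ratio of the means was 3.77-fold in WT and 4.52-fold in KO. The 4 KO ConA livers fell into a higher and a lower pair, and the WT ConA livers lay between the extremes of these pairs. In a bulk liver library, more cells that express a gene and more RNA per cell cannot be told apart, and this holds for each member.

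**Figure D1:**
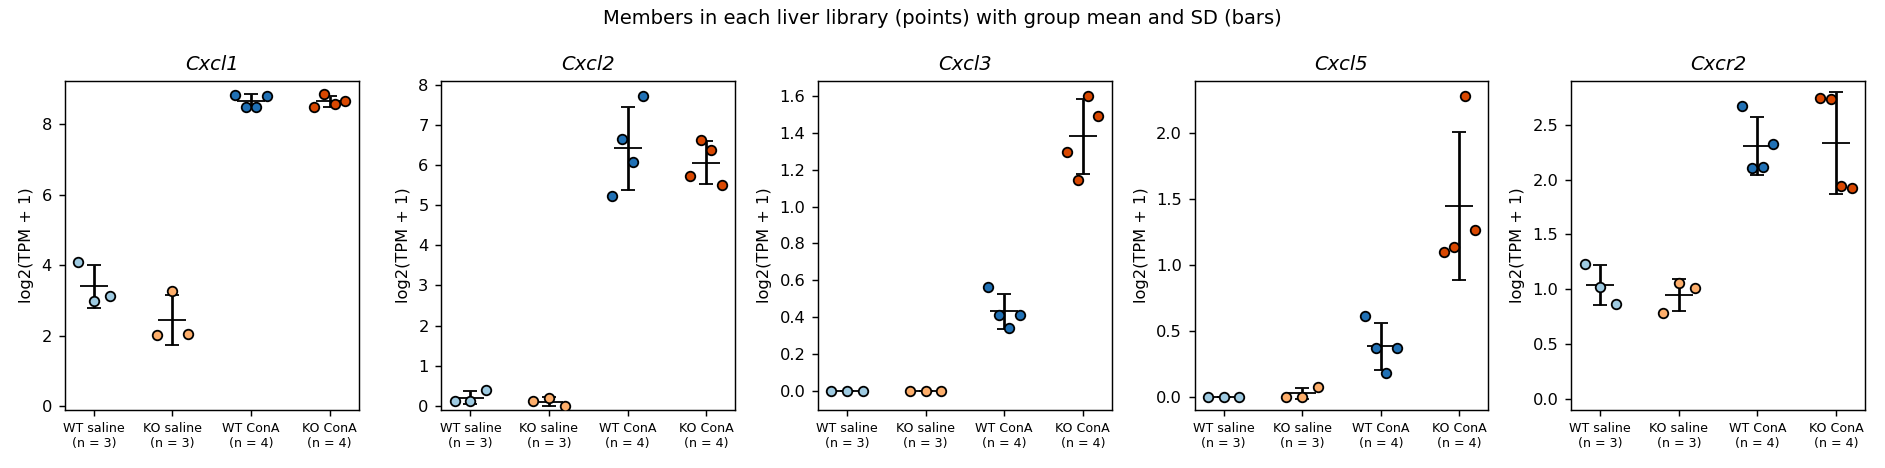
Each panel shows 1 member, with log2(TPM + 1) on the y axis and the 4 groups on the x axis, and each point is 1 liver library with the group mean and SD as bars. Cxcl1, Cxcl2 and Cxcr2 overlap between WT ConA and KO ConA, whereas the KO ConA points of Cxcl3 (1.21 to 2.03 TPM) and Cxcl5 (1.14 to 3.86 TPM) all lie above the WT ConA points.

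The order of the levels was the same at the top in all 8 ConA livers. Cxcl1 was above Cxcl2 in each, its lowest value (356 TPM) exceeding the highest of Cxcl2 (208 TPM), and Cxcl2 was above the other 3 members in each. Cxcr2 came next in WT ConA livers, where its lowest value of 3.30 TPM exceeded the highest values of Cxcl3 and Cxcl5. In KO ConA livers Cxcr2 and Cxcl5 overlapped, since Cxcl5 reached 3.86 TPM in replicate 3, where Cxcr2 was at 2.84 TPM. Cxcl3 and Cxcl5 did not differ beyond their spread in either ConA group.

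Summed over the 4 ligands, the TPM of WT ConA livers came to 423 to 656 and that of KO ConA livers to 413 to 566, against 3.11 to 16.2 over all saline livers. Cxcl1 made up 68.1% to 92.3% of that sum in WT livers after ConA, and in KO livers 81.0% to 89.5%. Cxcl3 and Cxcl5 made up little of it in any liver, at most 0.435% and 0.827%. The higher Cxcl3 and Cxcl5 of KO ConA livers therefore had almost no weight in the ligand total, which overlapped between the genotypes.

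**Figure D2:**
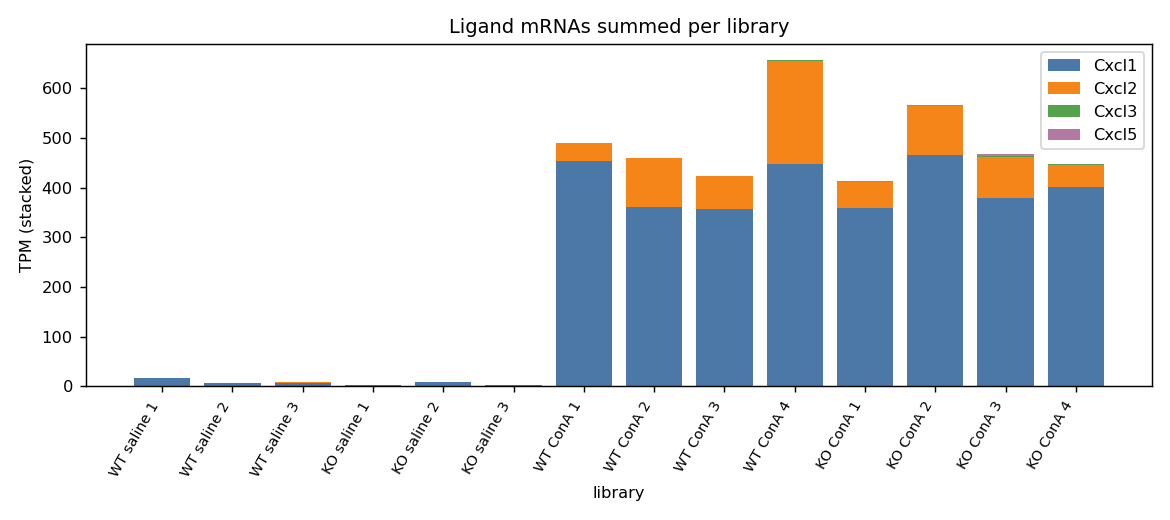
Stacked bars give the TPM of the 4 ligands in each of the 14 libraries, with TPM on a linear y axis that starts at 0. Cxcl1 fills most of each ConA bar (68.1% or more), Cxcl2 nearly all of the rest, and the saline bars are barely visible at 16.2 TPM or less.

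The groups were compared by fitting limma to log2(TPM + 1), with p adjusted by Benjamini-Hochberg over all genes tested and 0.05 as the threshold for a call. Fold changes of low genes are understated on this scale. A gene entered a test when it reached 1 TPM in at least as many livers as the smaller group had. Cxcl3 and Cxcl5 did so only through the KO ConA livers. In the tests of ConA against saline, Cxcl2 and Cxcr2 needed the ConA livers to do so.

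In WT ConA against WT saline, 3 members could be tested and all 3 rose, where 22% of the 10768 genes tested rose. Cxcl2 and Cxcr2 were in this test because they were high in WT ConA, so only the call of Cxcl1 was free of that selection. Cxcl1 rose by 5.25 (SE 0.25, adjusted p = 7.53e-07), Cxcl2 by 6.21 (SE 0.47, adjusted p = 8.87e-06) and Cxcr2 by 1.27 (SE 0.18, adjusted p = 3.11e-04) on the log2(TPM + 1) scale. In all 3 the groups did not overlap, as in 23.3% of the genes tested. Cxcl3 and Cxcl5 were below the filter, and with no filter they were 0.43 and 0.38 higher (adjusted p = 0.00121 and 0.0228), so that all 5 members passed.

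In KO ConA against KO saline all 5 members were tested and rose, against 33.9% of the 10988 genes tested. The differences were 6.20 (SE 0.26, adjusted p = 1.98e-08) for Cxcl1 and 5.96 (SE 0.25, adjusted p = 1.98e-08) for Cxcl2. They were smaller for Cxcl3, at 1.38 (SE 0.15, adjusted p = 1.38e-05), for Cxcl5, at 1.42 (SE 0.26, adjusted p = 6.31e-04), and for Cxcr2, at 1.38 (SE 0.24, adjusted p = 4.03e-04). In all 5 every ConA liver was above every saline liver, as in 32.8% of the genes tested. Cxcl2, Cxcl3, Cxcl5 and Cxcr2 were in this test because they were high in KO ConA. Their calls therefore add nothing to the count of members that responded.

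Between the genotypes after ConA, 1 of the 5 members was called. Cxcl3 exceeded its WT ConA level in the KO ConA livers by 0.95 (SE 0.15, 95% interval 0.63 to 1.27, adjusted p = 0.0369), where 0.342% of the 10519 genes tested were called higher. Cxcl5 differed by 1.06 (SE 0.25, 95% interval 0.51 to 1.61) with an adjusted p of 0.0725, so it missed the threshold. For Cxcl3 and Cxcl5 all 4 KO livers were above all 4 WT livers, as in 6.37% of the genes tested. Cxcl3 and Cxcl5 entered this test only because they were high in KO ConA, so the 1 call is not support for a difference in the members as a group. Of all genes tested here 16.7% had an unadjusted p under 0.05, against which the counts at that level below are to be read. The call of Cxcl3 was lost when any single liver other than WT ConA replicate 1 was left out (adjusted p 0.0533 to 0.106, against 0.0414 without that replicate). It was also lost with no filter (0.0846), after rescaling of the libraries by median ratios (0.0586) and without replicate 3 of both ConA groups (0.0863), whereas with all 14 libraries in the fit both Cxcl3 (0.00157) and Cxcl5 (0.0103) were called.

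Cxcl1, Cxcl2 and Cxcr2 were not called between the ConA groups. The difference was -0.01 for Cxcl1 (95% interval -0.31 to 0.29, adjusted p = 0.982), -0.35 for Cxcl2 (95% interval -1.34 to 0.63, adjusted p = 0.744) and 0.03 for Cxcr2 (95% interval -0.50 to 0.56, adjusted p = 0.968). The interval was narrow for Cxcl1 and wide for Cxcl2. The sign of all 3 differences changed when single livers were left out.

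With saline, 2 members could be tested between the genotypes and 0 were called at the adjusted threshold, where 19.2% of the 10459 genes tested were called in either direction. That background rested on single livers, since the 2009 genes called fell to 51 without WT saline replicate 2 and to 45 without replicate 3. Cxcl1 was lower in KO saline by 0.96 (SE 0.40, 95% interval -1.90 to -0.02), with an unadjusted p of 0.0465 and an adjusted p of 0.123. KO saline replicate 2, at 8.60 TPM, was above 2 of the 3 WT saline livers. Cxcr2 differed by -0.09 (SE 0.14, adjusted p = 0.659), and the other 3 members were below the filter.

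The difference of the ConA responses, KO minus WT, was tested with all 14 libraries. Cxcl3 was the 1 member called, at 0.95 (SE 0.17, adjusted p = 0.0166), where 2.64% of the 11327 genes tested were called higher in the KO response. With a single library left out, the 299 genes behind that share became 15 to 482. Cxcl3 was at 0 in every saline liver, so its value repeats the difference between the ConA groups and adds nothing independent to it. Cxcl5 had a difference of 1.04 (SE 0.32, adjusted p = 0.0677) and Cxcl1 of 0.95 (SE 0.41, adjusted p = 0.165). For Cxcl1 this value came from the saline livers, since its ConA means were nearly equal. Cxcl2 (-0.25, SE 0.59) and Cxcr2 (0.12, SE 0.31) had adjusted p of 0.807 and 0.832. The Cxcl3 call was lost without WT saline replicate 2 (0.0579), WT saline replicate 3 (0.0652) or KO saline replicate 1 (0.0511), although Cxcl3 was at 0 in each of these, and with WT saline replicates 2 and 3 averaged (0.0618). Cxcl5 was called without KO ConA replicate 3 (0.0319).

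**Figure D3:**
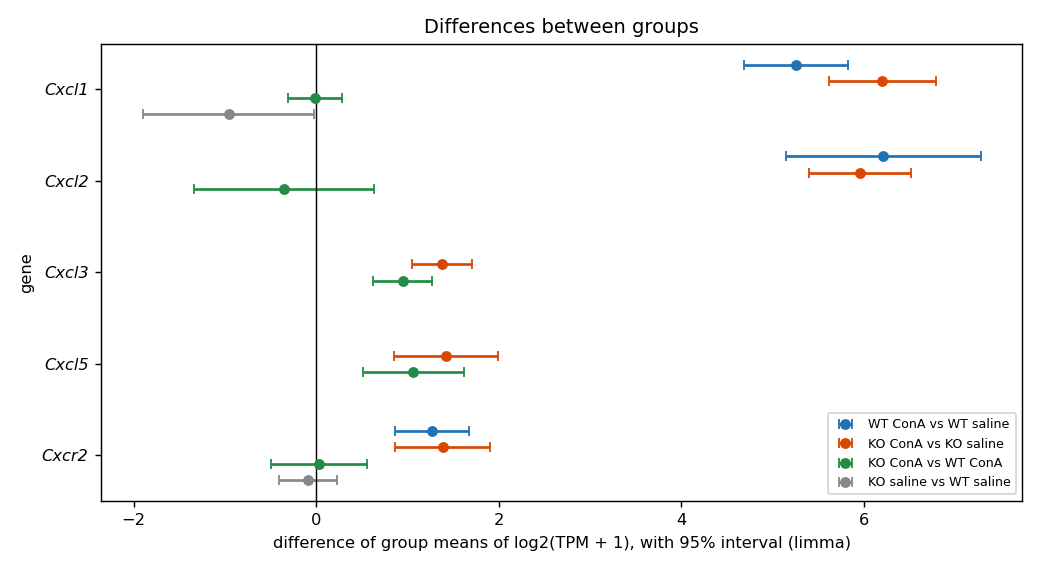
Each point is the difference between 2 groups in the mean log2(TPM + 1) of a member (y axis) with its 95% interval from limma, and colours mark the 4 comparisons. The ConA responses of Cxcl1 and Cxcl2 lie near 5 to 6, and between the ConA groups the intervals of Cxcl3 and Cxcl5 lie above 0 while those of Cxcl1, Cxcl2 and Cxcr2 include 0.

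Cxcl2 and Cxcl3 are similar in sequence, so short reads could be split between them. Of the 967 stretches of 50 bases in the GENCODE transcript of Cxcl3, 61 were also found in Cxcl2, and 93.7% were found in no other gene. Cxcl3 was 0.158% to 1.31% of Cxcl2 in WT ConA livers and 1.23% to 4.11% in KO ConA livers. Whether reads were split between them was not tested. For Cxcl1 all stretches were found in no other gene, and for Cxcl2, Cxcl5 and Cxcr2 95.9% to 96.9% were.

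The motif ATTTA, which tristetraprolin-type proteins recognise in short-lived mRNAs, was counted in the 3' UTR of the longest coding transcript of each member. There were 7 in Cxcl1, 11 in Cxcl2, 5 in Cxcl3, 5 in Cxcl5 and 2 in Cxcr2, against a median of 1 over 20945 genes. Of all genes, 21.4% had 5 or more, as each ligand did. Longer 3' UTRs hold more matches, and per kb the ligands held 4.50 to 11.8 and Cxcr2 1.10, against a median of 1.22.

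Ppbp and Pf4, platelet chemokine genes that lie between Cxcl5 and Cxcl3, were low in every liver (at most 8.02 TPM), and both rose in WT ConA (1.06 and 1.76, adjusted p = 0.0188 and 0.00345). In KO their differences were 0.22 and 0.59 (adjusted p = 0.563 and 0.113), and the differences of the responses did not pass the test (adjusted p = 0.302 and 0.186). Cxcl15, the lung chemokine gene in the middle of the cluster, was listed at 0 in 12 of the 14 livers and reached 0.04 TPM. Cxcr1, the neighbouring receptor gene of Cxcr2, did not exceed 0.09 TPM. Ackr1, a decoy receptor that binds chemokines without signalling, was called higher in KO ConA (0.71, SE 0.28, adjusted p = 0.0428). Ackr1 entered that test only because it was high in KO ConA. The groups overlapped, since KO ConA replicate 4, at 0.37 TPM, lay inside the KO saline range of 0.32 to 0.78 TPM. In WT it was below the filter, at 0.14 to 1.11 TPM with saline and 0.66 to 1.85 TPM with ConA. Between the ConA groups Ackr1 differed by 0.33 and was not called (limma adjusted p = 0.611).

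Of the genes that induce the ligands, 9 of the 11 tested rose in WT ConA and 9 of 12 in KO ConA. Over all genes tested, 22% and 33.9% rose. Tnf and Il1b needed the ConA livers to pass the filter in both genotypes. Tnf rose by 2.44 and 2.20 (adjusted p = 5.76e-06 and 4.50e-06), and Il1b by 1.76 and 2.64 (adjusted p = 2.07e-04 and 1.89e-06). Nfkbiz, a co-activator of NF-kB target genes, rose by 2.87 and 3.73 (adjusted p = 6.35e-05 and 3.85e-08). Il17a was listed at 0 in 12 livers and did not exceed 0.07 TPM. None of the 11 tested was called between the ConA groups (limma), with 2 at an unadjusted p under 0.05.

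Of the 8 genes that restrain the ligand mRNAs or NF-kB, 4 rose in WT ConA and all 8 in KO ConA. Over all genes tested, 22% and 33.9% rose. Zc3h12a rose in both, by 2.78 and 2.68 (adjusted p = 2.00e-06 and 1.38e-07). Zfp36 was at 59.9 to 119 TPM in WT ConA livers and 121 to 261 TPM in KO ConA livers. These groups did not overlap, as in 6.37% of the genes tested. The response of Zfp36 was 0.05 in WT (adjusted p = 0.860) and 1.58 in KO (adjusted p = 3.05e-04). The difference of the responses was called (1.53, SE 0.38, adjusted p = 0.0382). Part of it lay in the saline livers, where Zfp36 differed by -0.45 between KO and WT (limma adjusted p = 0.0540). With saline 3 of the 7 genes tested were called lower in KO (limma), where 12.9% of all genes tested were. Between the ConA groups Zfp36 differed by 1.08 (adjusted p = 0.0984), and 0 of the 8 genes were called (limma), with 5 at an unadjusted p under 0.05.

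Of the adhesion genes for neutrophils, 8 of 10 rose in WT ConA and 8 of 11 in KO ConA, against 22% and 33.9% of all genes tested. Some of these genes passed the filter only through the ConA livers. Icam1, the endothelial ligand of neutrophil integrins, rose 33.9-fold and 26.6-fold by the ratio of mean TPM (adjusted p = 3.89e-08 and 4.41e-10) and reached 213 ± 22.0 and 210 ± 18.3 TPM (SD, n = 4 each). Sele, the cytokine-induced E-selectin gene, was at 1.31, 0.78, 0.26 and 0.72 TPM in WT ConA and at 2.57, 2.51, 3.34 and 1.73 TPM in KO ConA. These groups did not overlap, as in 6.37% of the genes tested, with a difference of 1.01 (SE 0.21, limma adjusted p = 0.0651). The difference of the responses was called (1.01, SE 0.26, adjusted p = 0.0412). Sele passed the filter only through KO ConA and was near 0 with saline, so the second value repeats the first. Selp, the P-selectin gene, fell by 0.74 in WT ConA (adjusted p = 0.00688), and in KO its difference was 0.35 (adjusted p = 0.304). Of the 10 adhesion genes tested 0 were called between the ConA groups (limma), with 4 at an unadjusted p under 0.05.

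Among the genes for mobilisation and other attractants, 5 of 8 rose in WT ConA and 5 of 9 in KO ConA. Over all genes tested, 22% and 33.9% rose, and some of these genes passed the filter only through the ConA livers. Csf3, which encodes the neutrophil growth factor G-CSF, did not exceed 0.06 TPM with saline. It was at 1.12, 0.82, 0.77 and 2.21 TPM in WT ConA and at 2.98, 3.48, 14.6 and 6.40 TPM in KO ConA. The groups did not overlap, as in 6.37% of the genes tested, and the highest value was in KO ConA replicate 3, as for Cxcl5. The difference of 1.64 (SE 0.39) had an adjusted p of 0.0739, and Csf3 too passed the filter only through KO ConA. Cxcl12, the chemokine gene whose product retains neutrophils in bone marrow, fell by 2.64 in WT and by 2.40 in KO (adjusted p = 6.69e-06 and 3.88e-06). Cxcr4, its receptor gene, rose by 1.17 and 1.14 (adjusted p = 0.00155 and 2.91e-04). Of the 9 tested 0 were called between the ConA groups (limma), with 1 at an unadjusted p under 0.05.

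**Figure D4:**
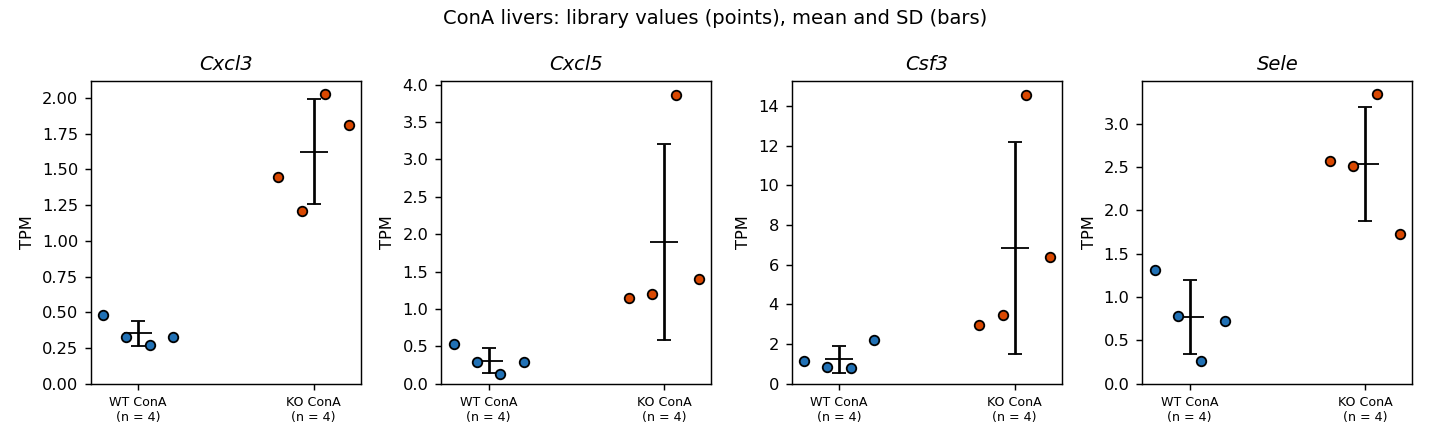
TPM of Cxcl3, Cxcl5, Csf3 and Sele (linear y axes from 0) in the 4 WT ConA and 4 KO ConA livers, with points for libraries and bars for the mean and SD. In each gene the KO ConA livers lie above the WT ConA livers, and KO ConA replicate 3 is the highest (2.03, 3.86, 14.6 and 3.34 TPM). These are genes without overlap that passed the filter only through KO ConA, and 6.37% of the genes tested lay this way. Icam1, Tnf and Il1b overlapped between these groups.

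Downstream of CXCR2, 2 of 8 genes rose in WT ConA, where 22% of all genes tested rose, and 4 of 9 in KO ConA, where 33.9% rose. Of these genes 0 of 8 were called between the ConA groups (limma), with 2 at an unadjusted p under 0.05. Grk2, the kinase gene whose product desensitises the receptor, differed by 0.25 and 0.32 (adjusted p = 0.143 and 0.0673). Arrb2, which encodes an arrestin that uncouples it, fell by 0.53 and by 0.70 (adjusted p = 0.0104 and 0.0176).

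Most neutrophil markers rose with ConA alongside the members. Of 19 markers 17 were tested, and 15 rose in each genotype, where 22% and 33.9% of all genes tested rose. Many of the markers were near 0 with saline and passed the filter only through the ConA livers. These counts were therefore in part fixed by the filter. With saline their summed level ranged from 12.7 to 19.9 TPM in WT livers and from 13.7 to 22.0 TPM in livers of KO mice, and after ConA from 353 to 615 and from 451 to 1035 TPM. S100a8 and S100a9, the calprotectin genes, made up most of this and rose by 5.78 and 6.30 in WT and by 6.77 and 7.26 in KO (adjusted p of 8.31e-07 or lower). Csf3r, the G-CSF receptor gene, rose by 1.80 and 1.78 (adjusted p = 3.54e-05 and 3.31e-04). Ly6g and Cebpe were tested and did not rise in either genotype. Ly6g, the surface marker by which mouse neutrophils are sorted, had its highest values in WT saline replicates 2 and 3 (4.85 and 5.04 TPM). Its differences after ConA were -1.15 and -0.21 (adjusted p = 0.0631 and 0.370). Cebpe differed by 0.46 in WT (limma adjusted p = 0.509) and by -1.93 in KO (limma adjusted p = 4.06e-06). It was also called lower in the difference of the responses. Mpo and Elane, granule genes of neutrophil precursors, did not exceed 0.26 TPM.

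Between the ConA groups 0 of the 17 tested neutrophil markers were called (limma), with 8 at an unadjusted p under 0.05, against 16.7% of all genes tested. The difference was above 0 for 15 of these markers, with a median of 0.52 against 0.05 over all genes tested. The mean log2(TPM + 1) of the 19 markers overlapped between the genotypes, since WT livers had 2.38 to 2.87 after ConA and livers of KO mice 2.48 to 3.32, and 3 of the 4 KO livers were above the WT range. The part of this in the difference of Cxcl3 and Cxcl5 was not tested. S100a8, S100a9 and Ly6g differed by 0.87, 0.73 and 0.52, and Csf3r by -0.23 (limma adjusted p = 0.165, 0.192, 0.340 and 0.727).

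Over the 8 ConA livers, each member was set against the mean log2(TPM + 1) of the 19 neutrophil markers, with exact two-sided permutation tests adjusted over the 5 members. Cxcr2 had the highest correlation (Pearson r = 0.72, exact p = 0.0591, adjusted p = 0.295, Spearman rho = 0.64, exact p = 0.0962), and r fell to 0.30 without KO ConA replicates 1 and 2, the livers farthest from the median. For Cxcl3 and Cxcl5 r was 0.53 and 0.51 (rho 0.59 and 0.56), for Cxcl1 0.26 (rho 0.31) and for Cxcl2 -0.13 (rho -0.19), with exact adjusted p of 0.321 or higher for r and 0.256 or higher for rho. Without the same livers r was 0.44, 0.65, 0.47 and -0.14. No member passed the test, and both axes share the libraries and their scaling. The 8 livers and their permutations mixed both genotypes, so differences between KO and WT enter r. Within KO ConA, replicates 1 and 2 had the highest marker means (3.32 and 3.23) but the lowest Cxcl3 (1.45 and 1.21 TPM) and Cxcl5 (1.14 and 1.20 TPM). Within WT ConA, replicate 1 had the highest marker mean (2.87), Cxcl3 (0.48 TPM) and Cxcl5 (0.53 TPM). Correlation within a genotype was not tested.

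**Figure D5:**
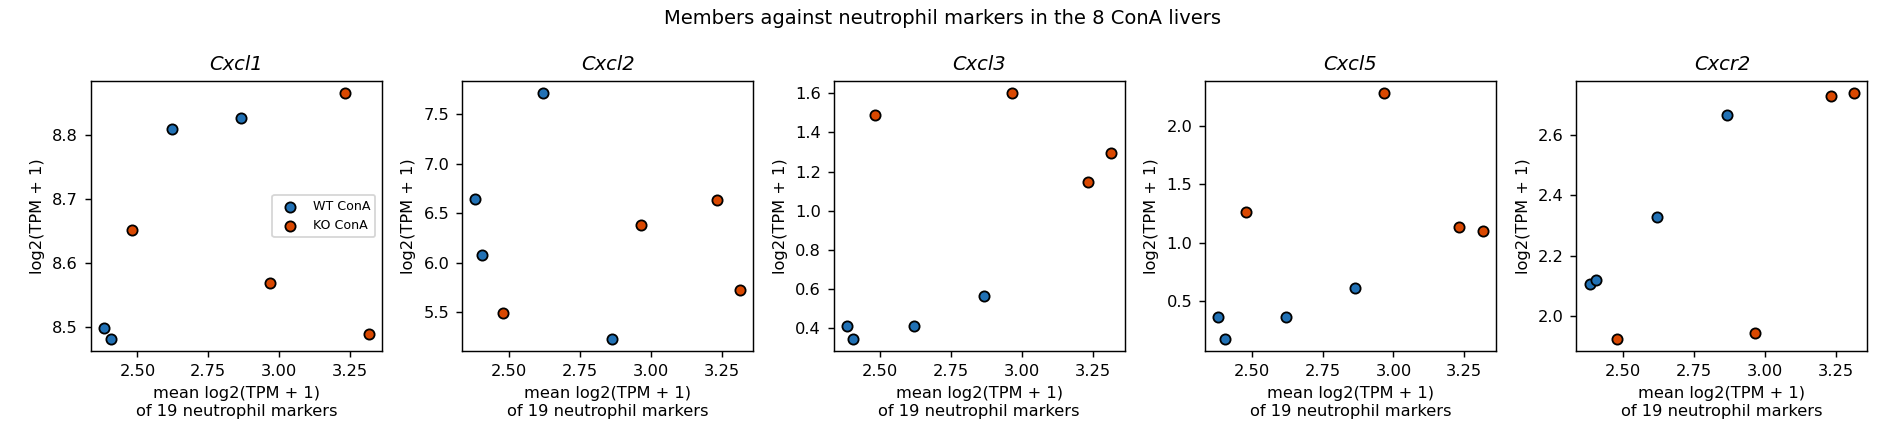
Each point is 1 ConA liver, with the mean log2(TPM + 1) of 19 neutrophil markers on the x axis and the log2(TPM + 1) of a member on the y axis. Cxcr2 was highest in KO ConA replicates 1 and 2, the livers with the most neutrophil marker RNA. The KO ConA points of Cxcl3 and Cxcl5 lie above the WT ConA points, and 3 of the 4 KO livers also lie to the right of the WT livers (marker means up to 3.32 against 2.87).

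Other cell types of the liver were read from their markers. Of 7 Kupffer cell markers, 6 fell in WT ConA and 4 in KO ConA, where 31% and 30.7% of all genes tested fell. Of 5 monocyte markers 2 were tested and both rose in each genotype, but they passed the filter only through the ConA livers. Of the 7 hepatocyte markers in the tables, 4 fell in WT ConA, and 5 fell and 1 rose (Apob) in KO ConA. Their summed level dropped from 105916 to 132790 TPM over the saline livers to 52181 to 80013 TPM over the ConA livers. Of the 6 endothelial markers 2 rose and 2 fell in WT ConA, and 3 rose and 2 fell in KO ConA. Of the 5 cholangiocyte markers tested 3 rose and 1 fell in WT ConA, and 1 rose and 1 fell in KO ConA, while of the stellate cell markers 0 of 1 and 0 of 5 rose and 2 fell in KO ConA. The 6 T cell markers in the tables summed to 0.81 to 4.93 TPM, too low for a count of calls. Platelet markers, from the cells that also hold Ppbp and Pf4 mRNA, were not called in either ConA response (0 of 2 and 0 of 1 tested with limma, and 0 at an unadjusted p under 0.05). Between the ConA groups 0 of the tested markers of these cell types were called (limma). All 5 endothelial markers tested had a difference above 0 (median 0.82, 2 at an unadjusted p under 0.05), as had both stellate cell markers (0.79, 2) and all 5 cholangiocyte markers (0.36, 2). The median was 0.04 over 7 hepatocyte markers (2 at an unadjusted p under 0.05), 0.36 over 3 Kupffer cell markers (0) and 0.11 over 2 monocyte markers (0), and the 1 platelet marker differed by -0.26. With saline, Clec4g and Pecam1 of 5 endothelial markers, Lrat of 5 stellate cell markers and Spp1 and Krt7 of 4 cholangiocyte markers were called higher in KO. Of 7 hepatocyte markers Serpina1a was called higher and Cyp2e1 and Apob lower, and 0 of 7 Kupffer cell markers were called (limma, 3 at an unadjusted p under 0.05). The part of these shifts in the members' values was not tested.

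The 3 genes whose pattern was nearest to each member were taken by the root mean square difference over the 14 livers, each gene set to its WT saline mean on the log2(TPM + 1) scale, among 11327 genes. For Cxcl1 they were Calhm6, Tlr2 and Ifi47 (differences of 0.53 to 0.56), and for Cxcl2 they were A2m, Ier3 and Cd14 (0.52 to 0.70). Tlr2 and Cd14 encode receptors for bacterial products. For Cxcl3 they were Nrp2, Slc7a1 and Mafk (0.17 to 0.19), and for Cxcl5 the nearest of all genes was Cxcl3 itself (0.21), followed by Calhm5 and Sprr1a. For Cxcr2 they were Cfap69, Rbm15b and Trem1 (0.17 to 0.18), of which Trem1 is a receptor gene of neutrophils and monocytes and 1 of the 19 markers. Small changes allow small differences, so the values rank genes within a member and do not compare members.

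Some facts of the whole series bear on these values. Ythdf1 itself ranged with saline from 12.0 to 13.9 TPM in WT livers and from 18.4 to 20.8 TPM in livers of KO mice, and after ConA from 18.7 to 25.6 and from 15.5 to 26.2 TPM. WT saline replicates 2 and 3 were closer to each other (median size of the log2 ratio 0.08) than any other pair of a group (0.13 to 0.47). WT ConA replicate 3 and KO ConA replicate 3 stood apart from the other livers of their groups (0.28 to 0.47 against 0.13 to 0.23 among the others). Rescaling the libraries changed the split of calls between the ConA groups from 36 higher and 9 lower to 12 and 13, and between the saline groups from 659 and 1350 to 744 and 771. It also moved the median difference of all genes in the test of the responses from 0.14 to 0.03, against which the members' values in that test should be read.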

How the data were processed

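Total RNA of 14 mouse livers was sequenced by the authors on a BGISEQ-500 (50 bases, single end). The submitters' processing notes name Bowtie2, RSEM 1.3.1 and GRCm38.p6, whereas the methods of the study name STAR, HTSeq and a count test with edgeR, so the steps behind the values are not settled. The deposited values are TPM with 2 decimals, scaled to 1000000 per library. They hold no read counts, so the depth is unknown, no counting interval was given, and genes with no signal (2230 to 2701 in a library) are called listed at 0. Groups and replicate numbers came from the sample labels. The titles of the KO saline samples do not name saline, but their treatment labels do.

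In R 4.3.3, limma 3.58.1 (eBayes, trended prior variance) was fitted to log2(TPM + 1), each comparison with its own libraries and the difference of responses with all 14. Benjamini-Hochberg adjustment ran over all genes tested. The procedure was tested on simulated data. Changes were planted only in genes above the WT ConA levels of Cxcl3, Cxcl5 and Cxcr2, so the test does not bear on genes that low. The members and gene lists were chosen with earlier results of these data known. Genes beside the members were named from these lists by a written rule, whatever they showed, and by likeness (3 per member). Mpo, Elane and Cebpe were chosen after their values were seen. Positions and promoters came from RefSeq (GRCm38.p6), transcripts from GENCODE vM21. Il17f, Tf and Trac of the lists were not analysed here. Protein sequences were not used here. The fits were repeated with a pseudocount of 0.1, with a filter at 5 TPM or none, with libraries rescaled by median ratios, with all 14 libraries, with robust eBayes, with WT saline replicates 2 and 3 averaged, with a replicate block and without each library. Leaving out both ConA replicates 3 was added after the data were seen. The rest used SciPy 1.17.1, pandas 2.3.3 and matplotlib 3.10.9 under Python 3.11.15.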

Additional observations from a re-analysis of the deposited data

Results flagged for a closer look

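Cxcl5 in KO ConA stood out because 1 liver lay far from the others. Replicate 3 was at 3.86 TPM and the other 3 livers at 1.14 to 1.40 TPM, and the gap to the nearest of them was 0.904 of the whole range of the group, above Dixon's 95% critical value for 4 samples. Of the 10 sets of 4 livers examined (5 members in both ConA groups) this was the 1 set that passed, and chance passes about 1 in 20. The same library stood apart from its group over all genes. Without it, Cxcl5 was still higher in each KO ConA liver than in each WT ConA liver, with a difference of 0.78 on the log2(TPM + 1) scale.

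Cxcl3 stood out because its ConA response differed between the genotypes by a test of the difference itself. The KO response exceeded the WT response by 0.95 on the log2(TPM + 1) scale (limma, adjusted p = 0.0166). All 6 saline livers were listed at 0, so the value is the difference between the ConA groups over again, with saline livers that add no spread, and it is not independent of that comparison. Cxcl3 passed the filter only through KO ConA. All 4 KO ConA livers were above all 4 WT ConA livers.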

How the results depend on the processing

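Over 322 fits of a member under an alternative, 290 kept their direction and their side of the threshold, 15 changed sign, 14 lost a call and 3 gained one. The ConA responses of Cxcl1 and Cxcl2 were called under every alternative, and those of Cxcr2 under every alternative in which it was tested. Each library left out in turn gave 3 members called in WT ConA against WT saline, 5 in KO ConA against KO saline and 0 between the saline groups, but 0 to 1 between the ConA groups and 0 to 2 in the difference of responses. With no filter the number called was 5 in WT ConA against WT saline and 0 between the ConA groups. With a filter at 5 TPM it was 2 in KO ConA against KO saline, 0 between the ConA groups and 0 in the difference of responses, since Cxcl3 and Cxcl5 were no longer tested in any of these, nor was Cxcr2 in the first 2. Cxcr2 also left the test of WT ConA against WT saline, where 2 were called, and that between the saline groups. Between the ConA groups it was 0 after rescaling and 2 with all 14 libraries. Without replicate 3 of both ConA groups it was 0 there and 2 in the difference of responses, and with WT saline replicates 2 and 3 averaged it was 0 in the latter. The cause of these shifts was not tested, beyond the loss of members from the tests at 5 TPM.

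The changes of sign were all in values not called. With each library left out in turn, the difference between the ConA groups ranged from -0.084 to 0.047 for Cxcl1, from -0.75 to 0.077 for Cxcl2 and from -0.11 to 0.17 for Cxcr2, and that between the saline groups from -0.18 to 0.0060 for Cxcr2. The difference of responses ranged from -0.65 to 0.18 for Cxcl2 and from -0.018 to 0.25 for Cxcr2. Rescaling put Cxcr2 at -0.041 between the ConA groups, and a pseudocount of 0.1 put Cxcl2 at 0.16 in the difference of responses. The correlation of Cxcl1 with the neutrophil markers was -0.0016 after rescaling.

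Over all genes, the 45 calls between the ConA groups became 4 with no filter, 25 after rescaling, 640 with all 14 libraries and 5 to 52 with a library left out. The 2009 calls between the saline groups became 584 with no filter, 332 with all 14 libraries and 49 with WT saline replicates 2 and 3 averaged. The 541 calls in the difference of responses became 328 with no filter, 28 with that average, 1591 without both ConA replicates 3 and 22 (without WT saline replicate 3) to 769 (without KO ConA replicate 3) with a library left out.

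Replicate numbers pair nothing in the labels, and the deviations of same-numbered libraries correlated at -0.198 to 0.411, with at least 1 pair of each comparison under 0.1. With a replicate block the members called were 3, 5, 1, 0 and 1 in the 5 tests, Cxcl3 having an adjusted p of 0.0441 between the ConA groups, and over all genes the calls were 140 there and 358 in the difference of responses. Values under about 1 TPM rest on an unknown number of reads, so the precision of Cxcl3, Cxcl5 and saline Cxcl2 cannot be given.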
